A study of Mus musculus with 15 samples.

Results

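Collagen chain genes were taken as all genes whose symbol in the array's annotation reads Col, a number, a and a number, using probe sets with exactly 1 symbol. Of the 18193 genes measured, 42 met this rule, through 82 probe sets, and each gene was read from the one brightest on average over the 15 arrays. They comprised 11 fibrillar chains, 8 basement membrane chains (the 6 of type IV, Col15a1 and Col18a1) and 23 others. The 15 arrays measured cells cut from frozen lung sections by laser capture microdissection. All groups came from K-RasG12V knock-in mice, whose oncogenic K-Ras allele also expresses a colour marker, and all were cut 3 months after adenoviral Cre was given to the lungs. There were 8 arrays of normal cells and 7 of early hyperplastic lesions (about 500 cells), 3 of them of the H1 subtype and 4 of the H2 subtype, and the normal cells came from the lesions' own sections. The sources used here do not give the animals' ages or number, which regions share an animal, or how the H1 and H2 labels were set. Since regions of 1 group may share an animal, p-values over regions may be too small, and they may be too large where animals are shared across groups.

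A collagen molecule is a triple helix of chains, each built of short repeats that begin with glycine. Types I, III and V form the banded fibrils of the lung interstitium and are made mainly by fibroblasts, whereas type IV forms the network of basement membranes under epithelium and endothelium. In the alveolar wall a type IV network of Col4a1 and Col4a2 chains lies beside one of Col4a3, Col4a4 and Col4a5 chains. The remaining families decorate fibrils (the FACIT collagens), form beaded filaments (type VI), anchor or network other structures, or span the cell membrane.

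All values are log2 signals, in which a difference of 1 is a doubling, and ± after a difference is its standard error (SE). A level belongs to its probe set and was compared between groups, never between genes. Counts of higher and lower genes rest on the brightest probe set of each gene. Of the 27 collagen genes with several probe sets, 12 had all of them in the same direction in H2 against normal cells. Of the 42 genes, 27 had a mean over all arrays above 3.99, the median over the means of all probe sets, and 12 lay below it in the mean of every group, where differences are poorly determined. The spread of gene values within an array, its standard deviation over the 18193 genes, ranged from 1.14 to 1.67 in normal cells, 1.31 to 1.49 in H1 and 1.52 to 1.78 in H2. The log2 difference of the 3′ and 5′ Gapdh controls, a measure of how intact the RNA was, averaged 2.53 ± 0.59 (SD, n = 8), 2.54 ± 0.35 (SD, n = 3) and 3.32 ± 0.86 (SD, n = 4). Fits with the spread, the Gapdh difference or the like Actb difference as a covariate are given beside the main chains. In microdissected pieces, more cells of a type and more RNA per cell cannot be told apart.

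In H2 lesions, 1 collagen gene rose and 2 fell against normal cells, at a limma adjusted p under 0.05 over all genes. The fibrillar chain Col1a2 rose by 1.57 ± 0.37, the membrane-spanning chain Col25a1 fell by 1.32 and the FACIT chain Col22a1 fell by 1.07 on the log2 scale. Of all genes 3.38% were called in this comparison, 2.89% higher and 0.495% lower. The H2 and normal arrays did not overlap in 4 of the 42 (Col1a2, Col3a1, Col22a1 and Col25a1), or 9.52%, where 3.79% of all genes did not overlap. In H1 lesions no collagen gene was called by limma, where 0.011% of all genes were, and 0 of the 42 had an unadjusted p under 0.05, where 4.23% of all genes did. In all lesions against normal cells none was called either, where 0.291% of all genes were, and 9 of the 42 (5 higher, 4 lower) had an unadjusted p under 0.05, a level that 12.8% of all genes passed. H1 against H2 gave none, where 0.0055% of all genes were called, and 4 collagen genes (2 higher in H1, 2 lower) passed that level, where 12.3% of all genes did. In H2 against normal cells, 13 collagen genes passed that level (8 higher, 5 lower), or 31.0% of the 42, where 21.4% of all genes passed. The median difference of the 42 in H2 was -0.03, beside -0.04 over all genes, with 21 genes above 0 and 21 below.

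**Figure D1:**
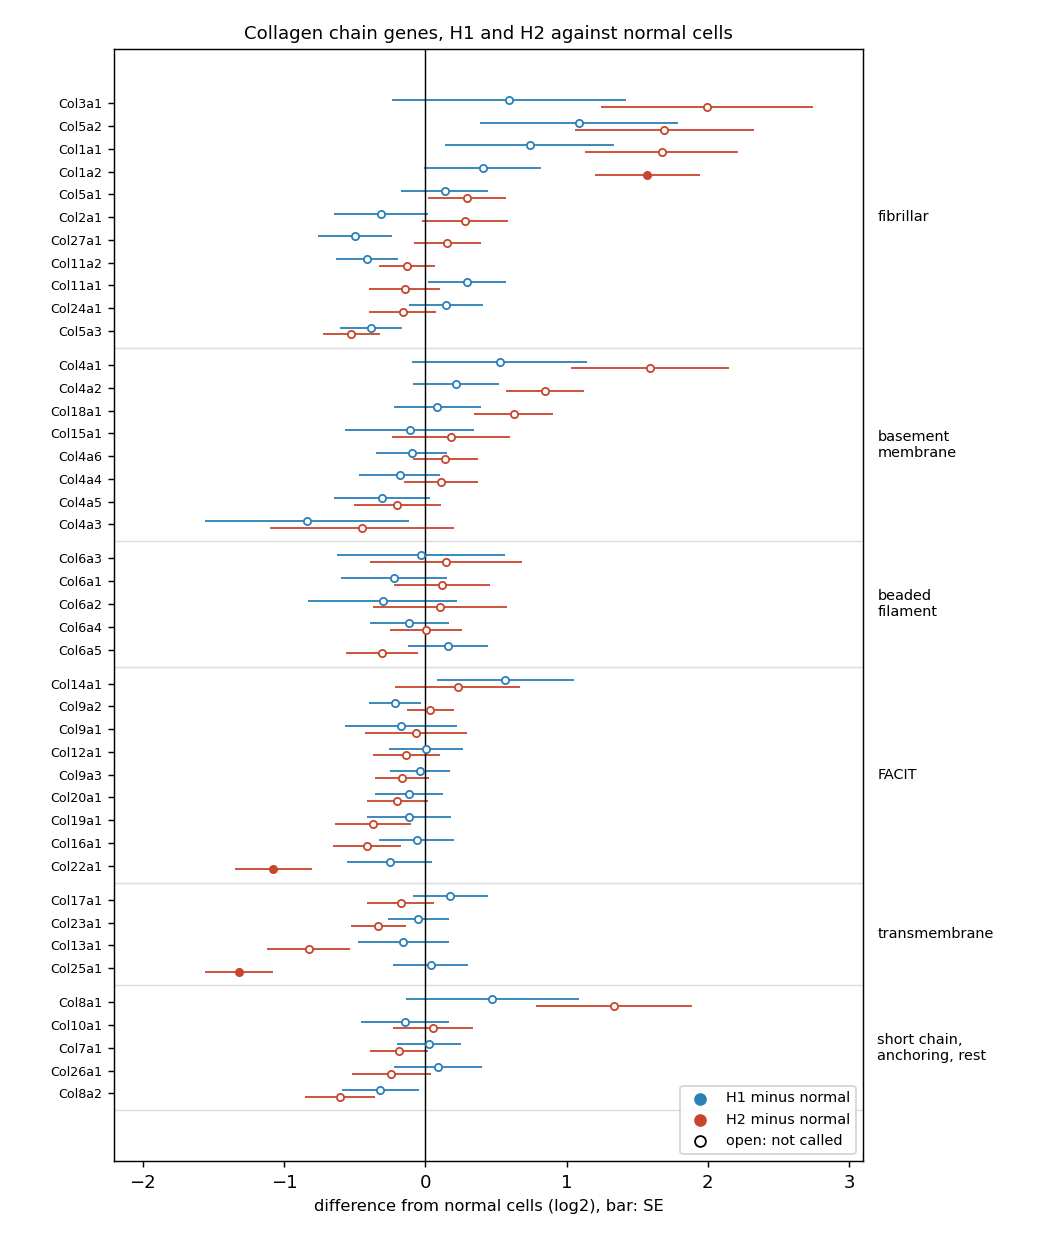
Differences of the 42 collagen chain genes from normal cells (log2, horizontal axis) in H1 (blue, n = 3) and H2 (red, n = 4), with bars for the SE of the fit and filled points for calls; both share the 8 normal arrays. In H2 the chains of types I and III, Col5a2, Col4a1 and Col8a1 lie above 1, Col25a1 and Col22a1 lie below -1, and the other chains lie between.

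Col1a2 encodes the second chain of type I collagen, which pairs with chains from Col1a1. Its signal in normal cells had a lowest value of 3.95, a median of 5.74 and a highest value of 6.21. In H1 it was 6.07, 5.94 and 5.75, inside the normal range. In H2 it was 7.09, 7.89, 6.29 and 7.08, so that every H2 array lay above every normal and H1 array. The mean rose from 5.52 ± 0.74 (SD, n = 8) to 7.09 ± 0.65 (SD, n = 4), or 2.98-fold (limma adjusted p = 0.0341). H1 differed from normal cells by 0.41 ± 0.41 (adjusted p = 0.997) and from H2 by -1.17 ± 0.47 (adjusted p = 0.352). A second Col1a2 probe set was 0.99 higher in H2 and the remaining, dim one was 0.28 lower. With array spread as a covariate the H2 difference was 0.98 and was not called (adjusted p = 0.317), and with the Gapdh difference as a covariate it was 1.27 (adjusted p = 0.221), with the Actb difference 1.07 (0.212). It was called in 9 of 15 fits that left out 1 array. The call was lost without normal replicate 4, 5 or 8 or H2 replicate 1, 5 or 7, with adjusted p up to 0.105. With the mean of its probe sets or its most variable probe set, Col1a2 was not called in H2 either. Among 14 alternatives other than leaving out 1 array, it was called in 5.

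Col1a1, Col3a1 and Col5a2, of the same fibrils, had H2 differences of like size with larger errors, and were not called. Col1a1, the main chain of type I, had a lowest value of 4.47, a median of 5.98 and a highest value of 7.45 in normal cells. It read 6.84, 7.01 and 6.41 in H1, and 6.40, 7.98, 7.56 and 8.81 in H2. H2 replicate 1 lay within the normal range and the other H2 arrays above it. The difference was 1.68 ± 0.54 (adjusted p = 0.0945), and its second probe set differed by 0.63.

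Col3a1, the single chain of type III collagen, ran from 3.87 through a median of 7.90 to 8.81 in normal cells. It was 7.09, 8.49 and 7.66 in H1 and 8.91, 9.38, 8.90 and 9.38 in H2. The 4 H2 arrays lay above all normal arrays, the lowest of them only just, and closer together than the normal arrays did. The H2 difference was 1.99 ± 0.75 (adjusted p = 0.146), with a 95% interval of 0.40 to 3.59, and a second, dim probe set differed by 0.17.

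Col5a2, a chain of type V, which lies inside type I fibrils and limits their width, ran from 2.23 through 4.23 to 6.78 in normal cells. It was 6.52, 4.96 and 4.87 in H1 and 5.45, 5.60, 6.41 and 6.73 in H2, so that both lesion groups overlapped normal cells. The H2 difference was 1.69 ± 0.63 (adjusted p = 0.142), and its second probe set differed by 0.45. Col5a1, the partner chain of Col5a2, differed by 0.30 ± 0.28 (adjusted p = 0.565), with a 95% interval of -0.29 to 0.89. Its other probe sets differed by -0.44 and 0.67. With array spread as a covariate the H2 differences were 0.28 for Col1a1, 0.26 for Col3a1 and 0.37 for Col5a2. In the same order they were 0.94, 1.33 and 1.19 with the Gapdh covariate and 1.15, 1.10 and 1.43 with the Actb covariate. Without normal replicate 3, the normal array of widest spread, Col1a1 (1.83, adjusted p = 0.0494) and Col5a2 (2.04, adjusted p = 0.0285) were called in H2, and Col3a1 (2.21, adjusted p = 0.0779) was not.

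**Figure D2:**
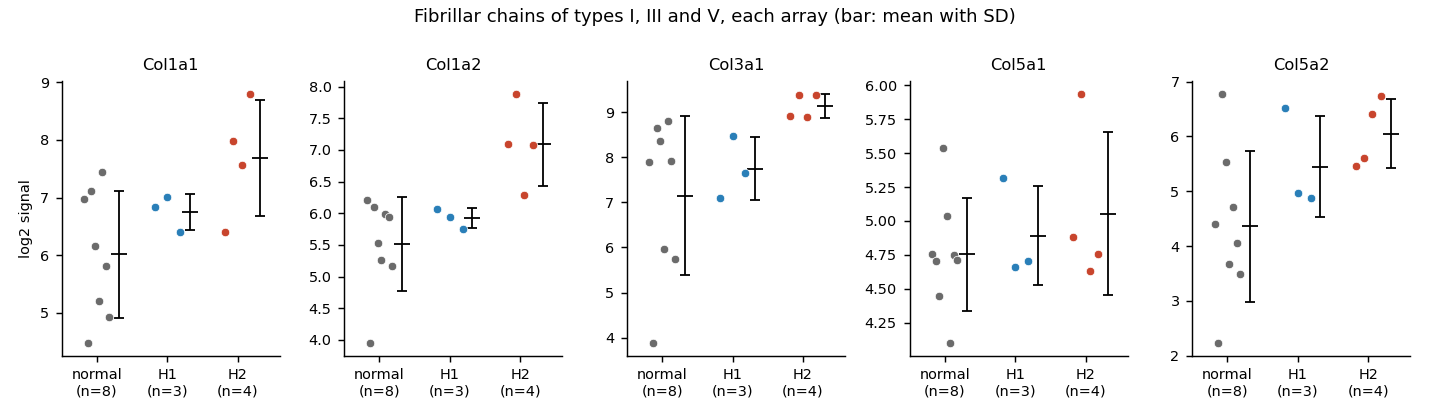
Log2 signal (vertical axis) of 5 fibrillar chain genes in each array of normal cells, H1 and H2, with the mean and SD beside each group. All 4 H2 points of Col1a2 and Col3a1 lie above the normal points, whereas Col1a1, Col5a1 and Col5a2 overlap, and normal replicate 2 is the lowest normal point of Col1a1, Col1a2, Col3a1 and Col5a2.

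The sequences upstream of Col1a2 and Col3a1, the fibrillar genes whose H2 and normal arrays did not overlap, are shown because they differ in the common promoter elements. They are the 250 bases before the annotated start in RefSeq (build GRCm38.p6), with Col1a2 at chr6:4505368-4505617 and Col3a1 at chr1:45311288-45311537, both on the plus strand. Capitals mark matches on either strand. The letters searched were CCAAT (the CCAAT box), then GGGCGG, known as the GC box, and last TATAAA, known as the TATA box.
Col1a2: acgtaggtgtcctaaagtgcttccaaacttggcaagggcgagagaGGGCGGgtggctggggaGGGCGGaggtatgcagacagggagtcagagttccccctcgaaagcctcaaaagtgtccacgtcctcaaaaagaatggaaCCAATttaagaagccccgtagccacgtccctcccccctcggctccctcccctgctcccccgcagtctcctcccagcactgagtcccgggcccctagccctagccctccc
Col3a1: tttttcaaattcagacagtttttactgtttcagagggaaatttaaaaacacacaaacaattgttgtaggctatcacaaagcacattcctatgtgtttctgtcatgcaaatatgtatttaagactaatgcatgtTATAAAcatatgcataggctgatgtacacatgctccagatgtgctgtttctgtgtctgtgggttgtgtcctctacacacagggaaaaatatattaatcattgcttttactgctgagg
The Col1a2 window held 2 matches to GGGCGG and 1 to CCAAT. The Col3a1 window held 1 match to TATAAA, 117 to 112 bases before the annotated start. The table held windows for 33 of the 42 genes, 36 windows in all. CCAAT stood in 36.1% of these, against 33.8% of all 32851 windows. GGGCGG stood in 58.3% against 32.7%, and TATAAA in 13.9% against 12.4%. A match describes the letters and is no evidence that a factor binds there.

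None of the other fibrillar genes was called. Col5a3, another type V chain, was lower in H2 by 0.52 ± 0.20 and in H1 by 0.38 ± 0.22, with neither called (adjusted p = 0.152 and 0.997). Its second probe set was 0.21 higher in H2 and 0.23 higher in H1. The cartilage chains Col2a1 and Col11a2 differed in H2 by 0.28 ± 0.30 and -0.13 ± 0.20, and Col11a1, Col24a1 and Col27a1 by -0.15, -0.16 and 0.16. The last was lower in H1 than in H2 by 0.65 ± 0.30 (unadjusted p = 0.0442, adjusted p = 0.391). Over the 11 fibrillar genes the median H2 difference was 0.28 (all genes, -0.04), with 7 higher and 4 lower, and 1 called.

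Among basement membrane chains, Col4a2 and Col4a1 had the lowest p in H2, and no gene was called in any comparison. Col4a1 had a lowest value of 5.59, a median of 7.42 and a highest value of 9.42 in normal cells. It was 7.17, 8.20 and 8.43 in H1 and 7.96, 9.20, 8.88 and 9.94 in H2, so that 1 H2 array exceeded the normal range. The H2 difference was 1.59 ± 0.56 (adjusted p = 0.121), and its second probe set differed by 1.22.

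Col4a2, whose chain joins those of Col4a1, ran from 3.54 through 4.00 to 5.27 in normal cells, was 4.21, 4.23 and 4.61 in H1 and 5.24, 5.14, 4.40 and 5.17 in H2. All H2 arrays lay under the highest normal array, normal replicate 3, and 3 of them lay above the other normal arrays. The difference was 0.85 ± 0.28 (adjusted p = 0.0981). Without normal replicate 3 both were called in H2, Col4a1 at 1.88 (adjusted p = 0.0279) and Col4a2 at 1.01 (adjusted p = 0.0145). With array spread as a covariate they were 0.06 and 0.50, with the Gapdh covariate 0.89 and 0.79 and with the Actb covariate 0.73 and 0.61, none of them called.

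The chains of the other alveolar network had smaller differences, of both signs. Col4a3 ran from 4.46 through 5.84 to 8.01 in normal cells. It was 4.47, 5.37 and 5.59 in H1 and 4.06, 5.50, 6.14 and 6.42 in H2. Its H2 difference was -0.45 ± 0.65 (adjusted p = 0.731) and its H1 difference -0.83 ± 0.72. The second probe set differed by -0.71 in H2. The Gapdh and Actb covariates gave -1.25 and -1.24, neither called. With array spread as a covariate, and in no other setting, Col4a3 was called lower in H2 (-2.36, adjusted p = 0.00258) and in all lesions.

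Col4a4 and Col4a5 differed in H2 by 0.11 ± 0.26 and -0.20 ± 0.31, and Col4a6, a chain of smooth muscle and other basement membranes, by 0.14 ± 0.23. Other probe sets gave -0.31 and 0.64 for Col4a4, 0.23 for Col4a5 and -0.08 for Col4a6. Col15a1, which bridges basement membranes to fibrils, differed by 0.18 ± 0.42 at a signal under 3.99 in every group's mean. Col18a1, the source of the fragment endostatin, differed by 0.63 ± 0.28 (adjusted p = 0.211), with 6.49 in H2 replicate 7 and 4.65 to 4.82 in the other H2 arrays, against 4.30 to 4.84 in normal cells. Of the 8 genes, 6 were higher and 2 lower in H2, with a median of 0.16.

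**Figure D3:**
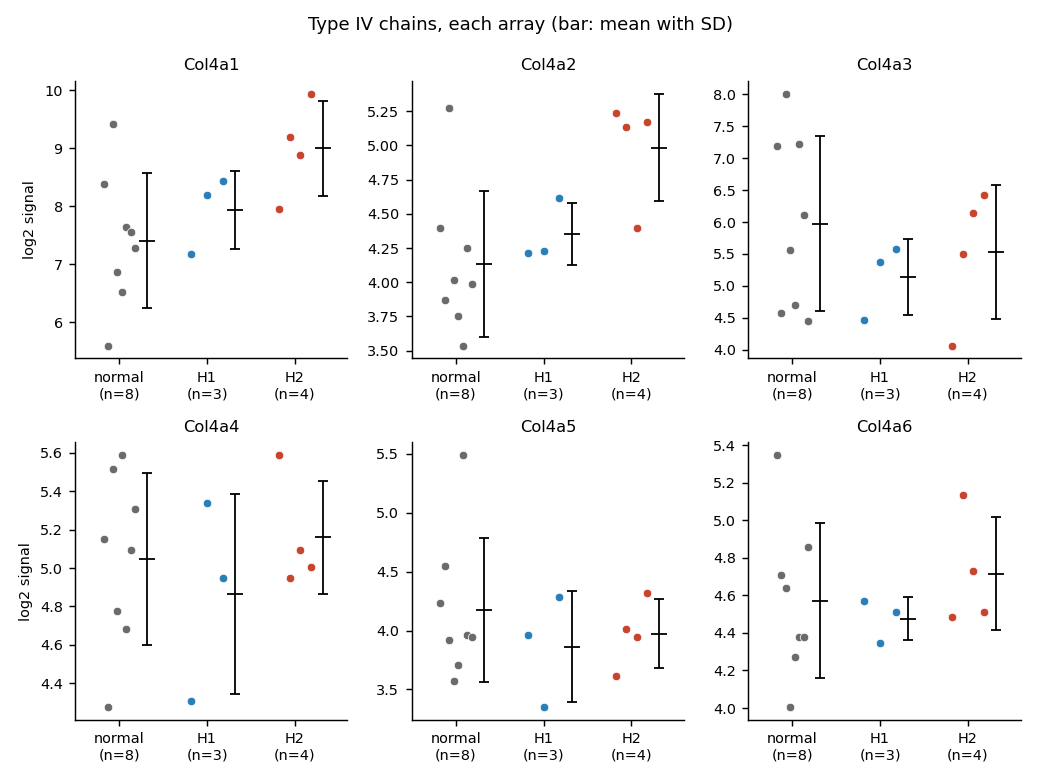
Log2 signal (vertical axis) of the 6 type IV chain genes in each array of normal cells, H1 and H2, with the mean and SD beside each group. The H2 points of Col4a1 and Col4a2 lie in the upper part of the normal range or above it, those of Col4a3 do not, and the groups overlap in Col4a4, Col4a5 and Col4a6.

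The 2 collagen genes that fell in H2 lay outside the fibrillar and basement membrane groups. Col25a1 encodes a membrane-spanning collagen known from neurons and muscle. It ran from 5.72 through 6.36 to 6.93 in normal cells and was 6.36, 6.31 and 6.56 in H1. In H2 it was 5.50, 4.39, 5.33 and 4.98, below every normal and H1 array. The fall of 1.32 on the log2 scale (SE 0.24), or 2.50-fold, was called (limma adjusted p = 0.0112) and stayed called when any of the 15 arrays was omitted, with adjusted p from 0.00413 to 0.0471.

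H1 did not differ from normal cells in Col25a1 by more than the spread, at 0.04 ± 0.27 with a 95% interval of -0.52 to 0.60. It exceeded H2 by 1.36 ± 0.30, the lowest p of the 42 genes in that comparison (unadjusted p = 0.000347, adjusted p = 0.240). The second Col25a1 probe set was 0.39 lower in H2. Array spread as a covariate gave -0.93 (adjusted p = 0.116), the Gapdh covariate -1.16 (0.0868) and the Actb covariate -1.16 (0.0723).

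Col22a1, a FACIT chain of tissue junctions, ran from 3.50 through 4.29 to 4.93 in normal cells, was 4.34, 3.92 and 3.70 in H1 and 2.74, 3.27, 3.50 and 3.14 in H2. All H2 values lay below all normal values, the highest only just, and the H2 mean of 3.16 ± 0.32 (SD, n = 4) lay under 3.99, so that the size of the fall of 1.07 (SE 0.27) is poorly determined (adjusted p = 0.0406). The other Col22a1 probe sets were lower by 0.26 and 0.28. Of the 15 fits without 1 array it was called in 4, which lacked normal replicate 1, 3 or 6 or H1 replicate 2. The highest adjusted p, 0.120, came without H2 replicate 7, and the call was also lost with array spread (-0.49, adjusted p = 0.435), the Gapdh difference (-0.84, 0.266) or the Actb difference (-0.77, 0.265) as a covariate.

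Col13a1, a membrane collagen of cell contacts, was lower in H2 by 0.83 ± 0.29 (adjusted p = 0.124). Its H2 values of 4.39, 3.87, 3.49 and 3.61 overlapped the normal range of 3.94 to 5.54 in 1 array. The membrane collagens Col23a1 and Col17a1 differed by -0.33 ± 0.20 and -0.17 ± 0.24. The other Col23a1 probe sets were 0.18 and 0.30 higher in H2, and Col17a1 lay under 3.99 in every group's mean. Read from the brightest probe sets, all 4 membrane-spanning chains had values below 0 in H2, with a median of -0.58, and 1 was called. In H1 2 of the 4 were above 0 and 2 below.

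**Figure D4:**
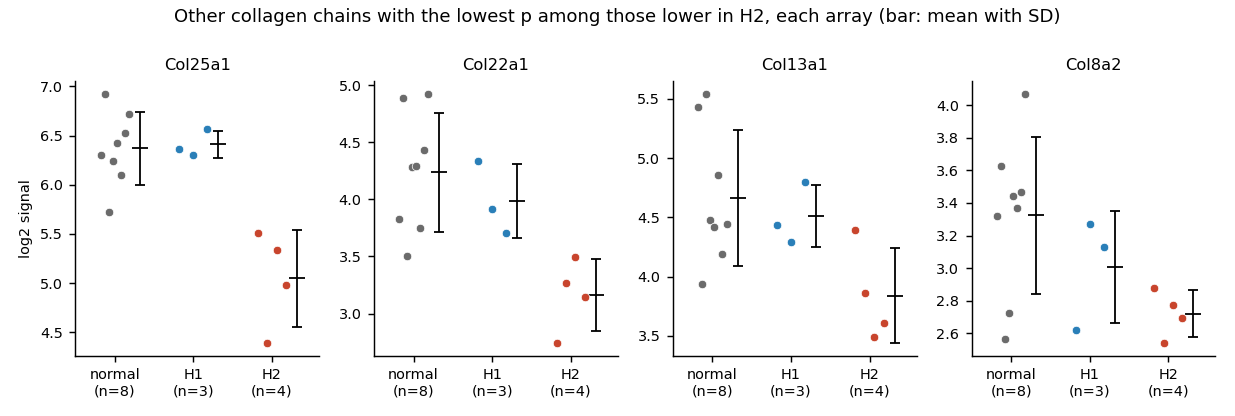
Log2 signal (vertical axis) of Col25a1, Col22a1, Col13a1 and Col8a2 in each array of normal cells, H1 and H2, with the mean and SD beside each group. The 4 H2 points of Col25a1 and of Col22a1 lie below all normal and H1 points, while those of Col13a1 and Col8a2 overlap normal cells.

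None of the remaining collagens was called. Of the 5 type VI chains, which form the beaded filaments around cells, Col6a1, Col6a2 and Col6a3 differed in H2 by 0.12 ± 0.34, 0.10 ± 0.48 and 0.15 ± 0.54, and Col6a4 and Col6a5 by 0.01 and -0.31. Col6a2 had 7.55 in normal replicate 1 and 4.25 to 6.05 in the other normal arrays. Of the 9 FACIT chains 2 were higher and 7 lower in H2, with a median of -0.16. Col14a1, which coats type I fibrils, differed by 0.23 ± 0.44 in H2 and 0.57 ± 0.49 in H1. Read from the brightest probe sets, the other 7, Col9a1, Col9a2, Col9a3, Col12a1, Col16a1, Col19a1 and Col20a1, lay between -0.41 and 0.04. A second Col9a3 probe set, about as bright on average (4.01 for each), differed by -1.17 in H2 and 0.68 in H1. The remaining, dim one differed by -0.17 in H2. Further probe sets lay between -0.58 and 0.04 in H2 for Col12a1 and between -0.12 and 0.16 for Col20a1. Those of Col19a1 had 0.05 and -0.59, and that of Col9a1 had -0.31.

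The short-chain network collagen Col8a2 was 0.60 ± 0.25 lower in H2 (adjusted p = 0.178) at signals under 3.99 in every group's mean. Its partner Col8a1, a gene of vessel walls that was singled out after its values were seen, was 1.34 ± 0.55 higher (adjusted p = 0.179). It had 5.55, 7.35, 6.85 and 6.67 in H2 against 2.80 to 6.06 in normal cells, and its other probe sets differed by -0.26 and -0.02. Col7a1, which anchors epithelium, Col10a1 and Col26a1 differed by -0.19, 0.06 and -0.24.

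In H1 lesions the differences of the fibrillar chains lay between -0.50 (Col27a1) and 1.09 (Col5a2), with a median of 0.15, and those of basement membrane chains between -0.83 (Col4a3) and 0.53 (Col4a1), with a median of -0.10. The other 23 had a median of -0.06, between -0.32 and 0.57. The lowest unadjusted p was 0.0773, for Col11a2. With 3 arrays the H1 intervals were wide. For Col1a1 the 95% interval ran from -0.53 to 2.01 and for Col3a1 from -1.17 to 2.35, which include the values found in H2. The H1 intervals of the 3 genes called in H2 did not include the H2 values: -0.47 to 1.28 for Col1a2, -0.89 to 0.38 for Col22a1 and -0.52 to 0.60 for Col25a1. These genes were picked by their H2 differences, whose own errors are left out here. In H1 against H2 directly, none of them was called by limma. In all lesions against normal cells, the lowest p belonged to Col1a2, at 1.07 ± 0.36 (unadjusted p = 0.00912, adjusted p = 0.227), and Col5a3, at -0.46 ± 0.17 (0.0132, adjusted p = 0.255).

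In H1 against H2, read from each gene's brightest probe set, all 8 basement membrane chains and 8 of the 11 fibrillar chains were lower in H1. Their medians were -0.34 and -0.59, beside -0.06 over all genes. The other 23 had a median of 0.21, with 15 higher in H1. None was called, with Col25a1, Col1a2, Col22a1 and Col27a1 at an unadjusted p under 0.05, or 9.52% of the 42, where 12.3% of all genes passed. The groups of 3 and 4 arrays did not overlap for Col1a2, Col3a1, Col22a1 and Col25a1, where 18.2% of all genes did not overlap in this comparison. With array spread as a covariate the fibrillar median was 0.06, with 5 of 11 lower, and 5 of the 8 basement membrane chains were lower, with a median of -0.14. With the Gapdh or the Actb covariate 6 of the 8 were lower, as without H2 replicate 7, and without H1 replicate 3 it was 7 of 8. Other probe sets of Col4a3 (0.37), Col4a4 (0.78) and Col4a6 (0.07) were higher in H1. Those of Col4a1, Col4a5 and Col18a1 were lower, as was a further Col4a4 probe set (-0.58). Among fibrillar chains, other probe sets of Col3a1 (0.12) and Col5a1 (0.44) were higher in H1. Those of Col1a1, Col1a2, Col5a2 and Col27a1 were lower, as was a further Col5a1 probe set (-0.36).

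Chains that share a molecule or lie side by side in the genome were compared across the 8 normal arrays, which may share animals. Each r was tested against 0, with no pairs of unrelated genes beside it. A correlation particular to a pair thus cannot be told apart from variation that many genes share across these arrays. Normal replicate 2, the lowest in several of these chains, also had the narrowest spread (1.14) and the lowest sum of alveolar type 2 markers (8.13). Col1a1 and Col1a2, which make up type I collagen from different chromosomes (11 and 6), had r = 0.85 (exact two-sided permutation p = 0.00188, adjusted over 6 pairs 0.0113; Spearman's rho = 0.88, exact p = 0.00724). Without the 2 arrays farthest from the Col1a1 median, r was 0.90 (exact p = 0.0264, n = 6).

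Col3a1 and Col5a2, neighbours on chromosome 1, had r = 0.85 (exact p = 0.00546, adjusted 0.0164; rho = 0.90, exact p = 0.00456). Without the 2 farthest arrays r was 0.67 (exact p = 0.158), so that its passing rests on those arrays, with n down to 6. After every array was scaled to one spread, r was 0.81 and 0.87 (adjusted p = 0.0119 for both). With the mean of all probe sets neither pair passed (r = 0.85 and 0.62), nor did either without normal replicate 2 (r = 0.86 and 0.75).

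Col4a1 and Col4a2, neighbours on chromosome 8 on opposite strands, had r = 0.77 (exact p = 0.0309, adjusted 0.0619; rho = 0.60, exact p = 0.132), and 0.51 without the 2 farthest arrays. Col4a3 with Col4a4 (r = 0.17, rho = 0.05), Col4a5 with Col4a6 (0.16, 0.51) and Col6a1 with Col6a2 (0.44, 0.51) did not pass, with exact p for r from 0.283 to 0.677 and for rho from 0.197 to 0.935. Without the 2 farthest arrays r was 0.05 for the first of these, 0.93 for Col4a5 with Col4a6 (exact p = 0.0139) and 0.88 for Col6a1 with Col6a2 (exact p = 0.0111).

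Other genes of the collagen pathway were read from the same fits. Of 27 enzymes and chaperones of collagen synthesis and processing, 12 were higher and 15 lower in H2, with a median of -0.07. By limma 0 were called, and 2 had an unadjusted p under 0.05, where 21.4% of all genes did. P4hb, a subunit of the enzyme that hydroxylates prolines of the helix, differed by 1.18 ± 0.46 (adjusted p = 0.159) and Ppib, which folds it, by 1.17 ± 0.59 (0.267). Pcolce2, which speeds the removal of the procollagen tail, differed by -1.71 ± 0.64 (0.140) and the lysine hydroxylase Plod2 by -0.44 ± 0.24 (0.296). Pcolce, a relative of Pcolce2, was at 2.41 in H1, against 4.47 in normal cells and 4.75 in H2 (H1 difference -2.06, adjusted p = 0.997).

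Of 10 proteoglycans and glycoproteins that bind fibrils, 8 were higher and 2 lower in H2, with a median of 0.38. At an unadjusted p under 0.05 by limma were 4 of them, 2 higher and 2 lower. Ogn, a small proteoglycan of fibrils, fell by 2.58 (SE 0.58, adjusted p = 0.0273), from 6.00 to 3.42, the 1 gene of the pathway lists that was called, and its H2 and normal arrays overlapped. Among 9 collagen receptors 4 were higher and 5 lower, and 0 were called by limma (3 at an unadjusted p under 0.05, beside 21.4% of all genes). Ddr1, a kinase that fibrils activate, differed by 2.11 ± 0.67 (adjusted p = 0.0885), and the integrin chains Itga10, Itga2 and Itga1 by -0.80, -0.69 and 0.68.

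Markers of the cells that make collagens were read in the same arrays. Of 12 fibroblast markers 9 were lower and 3 higher in H2, with a median of -0.56 and 0 called by limma. At an unadjusted p under 0.05 were 5, of which 4 lower, where 21.4% of all genes passed. Pdgfrb, a receptor of mesenchymal cells, differed by 2.86 ± 0.84 (adjusted p = 0.0730), Inmt by -1.32 ± 0.52, Tcf21 by -1.04 ± 0.42 and Fbln1 by -0.87 ± 0.39. Tcf21, Thy1, Meox2, Pi16 and Wnt2 had means under 3.99 in all 3 groups. The summed signal of the list ranged from 9.14 to 11.37 in normal cells, 9.26 to 9.42 in H1 and 9.52 to 10.12 in H2. That of the fibrillar collagens ranged from 7.55 to 9.72, 8.86 to 9.40 and 9.76 to 10.54, and a few bright chains carry it.

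Of 10 smooth muscle and pericyte markers 9 were lower and 1 higher in H2, with a median of -0.24 and a summed range of 7.94 to 8.40 in normal cells, 8.18 to 8.34 in H1 and 8.11 to 8.95 in H2. The higher one was Postn, which fibroblasts also make (1.33 ± 0.52, adjusted p = 0.163), and Cnn1 and Actg2 lay under 3.99 in all groups. Of 12 endothelial markers, of cells that make type IV collagen, 9 were lower and 3 higher in H2, with a median of -0.61. Their sum ran from 8.26 to 10.88 in normal cells, 8.39 to 8.99 in H1 and 8.39 to 8.91 in H2, and Tie1 lay under 3.99 in all groups. Clec14a, Ramp2, Calcrl and Kdr differed in H2 by -0.99, -1.22, -1.74 and -0.64, with adjusted p from 0.0631 to 0.172. Of 8 alveolar type 2 markers all 8 were higher in H2, with a median of 2.11 and Abca3 called (2.35 ± 0.52, adjusted p = 0.0249), and their sum ran from 8.13 to 14.26 in normal cells, 11.80 to 13.57 in H1 and 12.60 to 14.25 in H2. Alveolar type 1 markers had 4 higher and 4 lower, with a median of -0.20. Macrophage markers had 6 and 2, with a median of 1.13 and 0 called by limma. At an unadjusted p under 0.05 were 3 of the 8, all higher. The macrophage sum ran from 8.05 to 12.76 in normal cells, 9.98 to 11.72 in H1 and 11.37 to 12.55 in H2. Club and ciliated cell markers had 3 and 3, with Cyp2f2 called (1.57, adjusted p = 0.0308) and Scgb1a1, Scgb3a2, Foxj1 and Ccdc113 under 3.99 in all groups, while lymphocyte markers had 3 and 4 and mesothelial markers 1 and 3. At an unadjusted p under 0.05 in H2 were 5 of the 12 endothelial markers, all lower, and 5 of the 8 alveolar type 2 markers, all higher. Of the 10 smooth muscle and pericyte markers 3 passed that level, 1 higher and 2 lower. Over all genes 21.4% passed it in H2, and 3.38% were called by limma. The part of the cell mix in the collagen differences was not tested.

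**Figure D5:**
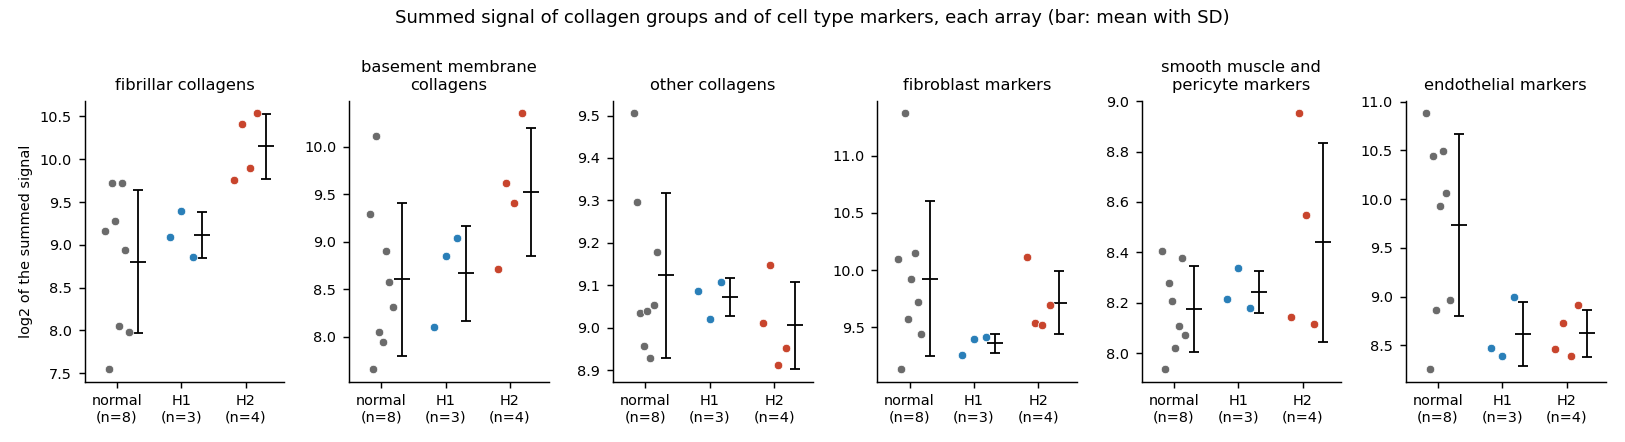
Log2 of the summed signal (vertical axis) of 3 collagen groups and 3 lists of cell type markers in each array of normal cells, H1 and H2, with the mean and SD beside each group. The H2 points of the fibrillar collagens lie above all normal points, the lowest only just, while the H2 points of the fibroblast and endothelial markers lie within the normal range.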

How the data were processed

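RNA from laser-captured lung cells was amplified and hybridised to Affymetrix arrays, per the labels' protocols. The authors deposited log2 signals per probe set, and the submitters' processing notes name affy and RMA, with no version; no further normalization was applied. Array medians lay between 3.87 and 4.06. Of 45101 probe sets, 34945 had exactly 1 symbol in the platform annotation, 932 had several and 9160 had none, with 64 array controls left out. Each gene was read from its brightest probe set by mean signal. All 42 collagen gene IDs were in the RefSeq table (GRCm38.p6), with 0 symbols changed.

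The main fit used limma 3.58.1 in R 4.3.3 on all 18193 genes and 15 arrays, with normal, H1 and H2 as groups (all lesions against normal cells in a fit with 2 groups). Moderated statistics were adjusted by Benjamini-Hochberg over all genes, and calls were made under 0.05. No filter on low signals was applied. The scripts were checked on simulated data. The arrays' number limits the precision.

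Genes were named if called, if they were the main chains of types I, III, IV, V, VI, XIV, XV or XVIII, or if among the 4 lowest p in a direction. In the other lists the called genes or else the 4 with the lowest p were named. The members and lists were chosen with earlier results of these data known. Alternatives changed the scaling between arrays, covariates, probe set rule, filter, variance prior, array weights, replicate block, arrays fitted, and left out each array in turn.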

Additional observations from a re-analysis of the deposited data

Results flagged for a closer look

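In 7 of 84 groups tested (each collagen gene in normal cells and in H2), 1 array lay far from the rest, where the gap to its nearest neighbour took up an unusually large share of the group's range. Chance alone flags about 1 in 20 groups, and H1 was not tested. In Col1a2, normal replicate 2 had 3.95 and its nearest neighbour 5.17 (share 0.542), and without this array the H2 difference of Col1a2 was 1.35 (limma adjusted p = 0.0240). The same array was high in Col10a1, at 4.59 against 3.78 (0.559). In H2, Col18a1 had 6.49 in replicate 7 against 4.82 (0.908), Col4a2 had 4.40 in replicate 6 against 5.14 (0.882), and Col9a1 had 4.99 in replicate 1 against 3.15 (0.865). Replicate 5 of H2 was high in Col9a3, at 4.61 against 3.71 (0.896), and in Col11a2, at 3.75 against 3.02 (0.860).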

How the results depend on the processing

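The count of collagen genes called in H2 against normal cells, 3, moved most. It was 0 after a repeated quantile normalization and with the Gapdh or the Actb 3′ to 5′ difference as a covariate. It was 1 after scaling arrays to one spread (Col25a1), with array spread as a covariate (Col4a3, lower), with the mean of probe sets (Col25a1) and with only the arrays compared (Col25a1). With the most variable probe set Col22a1 and Col25a1 were called, and with a filter on dim genes Col1a2 and Col25a1. Array weights gave 8. Leaving out each array in turn gave 1 to 7 calls, with 7 without normal replicate 3 and 1 without normal replicate 4, 5 or 8 or H2 replicate 1, 5 or 7. Without the 2 normal arrays of narrowest spread, an alternative chosen after seeing the data, 2 were called (Col1a2 and Col25a1). In all lesions the spread covariate gave 1 call in place of 0, and in H1 against H2 array weights gave 1 (Col25a1). In H1 against normal cells every alternative gave 0 calls. The pairs of chains that passed, 2, were 0 with the mean of probe sets and 0 to 3 when an array was left out, with 0 without normal replicate 2. The cause of these changes was not tested.

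Normal cells and lesions share replicate numbers. The correlation of same-numbered arrays lay between -0.14 and 0.38, over 0.1 in 4 of 7 pairs, and 1 of 7 lesions correlated best with its own number. The numbers were therefore not taken to pair the samples. Normal cells came from the lesions' own sections, but which regions share a section or animal is not known. The main fit leaves this sharing out. With the replicate block, 0 collagen genes were called in H2. Signals near or below 3.99 limit the 12 dim genes.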
